A study of Rattus norvegicus with 4 samples.

Results

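The genes described here encode secreted or epithelial proteins of mucosal defense: Lcn2, Slpi, Pla2g2a, Reg3a, Reg3b, Reg3g, Lyz2, Defb1, Il1rn and Pigr. They were chosen as a list of 10 symbols and found in the deposited table by matching its RefSeq transcript accessions to the gene table of the rat assembly GRCr8. Each of the 10 had 1 row. Of these, 7 held a value on all 4 arrays, and the 3 Reg3 genes were blank on every array, against 30.5% of all 26420 rows and 27.9% of the curated rows that were blank in the same way. The table holds 18350 measured rows in all, and 6968 genes with a measured row could be named.

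Colon RNA of male rats was hybridized to one-color NimbleGen arrays, with 2 arrays in the control group (no MSC transplantation) and 2 in the MSCT group (rats with inflammatory bowel disease, IBD, that received mesenchymal stem cells, MSCs). In the study, colitis was induced with TNBS, a hapten given into the colon in ethanol, and MSCs that carried green fluorescent protein were infused through the tail vein of Sprague Dawley rats. The control animals are called normal in the sample descriptions and IBD rats in the design text and the paper, so the neutral name control group is used, and whether they share the colitis with the MSCT group cannot be told from the labels. The day of sampling is stated in different ways in the paper and is absent from the labels, and no age is given. The tissue was whole colon from the lesion region, so each value sums over epithelium, immune cells and muscle. The array medians lay between 848 and 893 intensity units. Each array is taken as 1 rat, as the design text describes the RNA, and with 2 arrays in each group an exact permutation test cannot give a two-sided p under 0.333.

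The colon epithelium keeps bacteria at a distance with secreted proteins that bind iron carriers, cut bacterial lipids or sugars, or form pores. Several of these genes are switched on by NF-κB and STAT3 when cytokines such as interleukin 1, interleukin 17 and interleukin 22 reach the epithelium, and some are also made by neutrophils and macrophages. Lcn2, Slpi and Il1rn are known as genes of acute inflammation in many tissues, whereas Pigr and Defb1 are made by resting epithelium.

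Promoter sequences were read from RefSeq (GRCr8), in which 8 of the 10 genes had an entry (all but Slpi and Defb1). The windows searched cover 250 bases before the start site. Shown here are the parts outside the annotated span of the gene for Lcn2 and Pla2g2a, which passed the study's limits on these arrays, and for Lyz2, which did not. Letters in capitals mark a match to a motif, on either strand.
Lcn2 (chr3:36081852-36082030, minus strand): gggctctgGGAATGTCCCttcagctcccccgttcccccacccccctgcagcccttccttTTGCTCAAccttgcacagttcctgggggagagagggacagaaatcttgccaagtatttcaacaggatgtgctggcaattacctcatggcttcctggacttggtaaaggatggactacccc
Pla2g2a (chr5:156359475-156359724, plus strand): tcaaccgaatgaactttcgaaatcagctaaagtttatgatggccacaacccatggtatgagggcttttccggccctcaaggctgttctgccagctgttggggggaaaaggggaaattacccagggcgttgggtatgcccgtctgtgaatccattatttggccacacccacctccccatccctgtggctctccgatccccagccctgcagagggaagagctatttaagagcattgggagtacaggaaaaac
Lyz2 (chr7:54798061-54798261, minus strand): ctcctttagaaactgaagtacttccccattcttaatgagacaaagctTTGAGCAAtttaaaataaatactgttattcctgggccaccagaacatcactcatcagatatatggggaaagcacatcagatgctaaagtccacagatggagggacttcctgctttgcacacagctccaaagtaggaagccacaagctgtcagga

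The motifs searched were the NF-κB consensus, the STAT motif TTCNNNGAA, the C/EBP motif TTGCNNAA, the AP-1 motif TGANTCA and the TATA box TATAAA. Lcn2 held 1 match to the NF-κB consensus, on the minus strand of the window at -242 to -233 from the start, and 1 C/EBP match at -191 to -184. Lyz2 held a C/EBP match at -203 to -196, and the Pla2g2a window held no match to any of these motifs. Of all 33469 promoter windows of the same length, 6.33% held the NF-κB consensus and 9.22% the C/EBP motif. Among the genes that were blank on the arrays, both entries of Reg3a held a C/EBP match (at -202 to -195 and at -229 to -222), the Reg3b window held a STAT match at -129 to -121, a motif found in 7.67% of all windows, and the Reg3g window an NF-κB match at -128 to -119 that reads on both strands. The AP-1 motif (6.34% of all windows) was found in no window of these genes. The TATA box (12.9%) was found in those of Reg3b (-29 to -24) and Reg3g (-32 to -27), both on the plus strand. The Il1rn window, which lies wholly inside the annotated span of the gene, held it on the minus strand at -64 to -59. A match describes the letters of a window and was not tested as a binding site.

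Of the 7 measured genes, 4 were higher in the MSCT group at p under 0.05 without adjustment and over 2-fold. These were Lcn2, Il1rn, Slpi and Pla2g2a (between 2.53-fold and 3.81-fold). The limits are those the study set for its chips, applied here to the p from limma, and are called the screen. Over all 18350 rows, 2.12% passed the screen in this direction, as did 3.13% of the 6968 named genes. A 5th gene, Lyz2, was higher with a p under 0.05 (as were 4.80% of all rows) but less than 2-fold, Pigr differed by 0.05 on the log2 scale, and Defb1 was lower on average with overlapping groups. No gene of the list passed an adjusted p of 0.05 in limma, and neither did any of the 18350 rows (0%), with 2196 of them (12.0%) at an unadjusted p under 0.05. The median log2 difference of the 7 genes was 1.34, beside -0.02 over all measured rows and 0.05 over the named genes. The list was drawn up with earlier results of these arrays known, so its count and median describe the genes and are not independent evidence of a direction. In this and every result on whole colon, more cells of a type and more RNA per cell cannot be told apart.

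**Figure D1:**
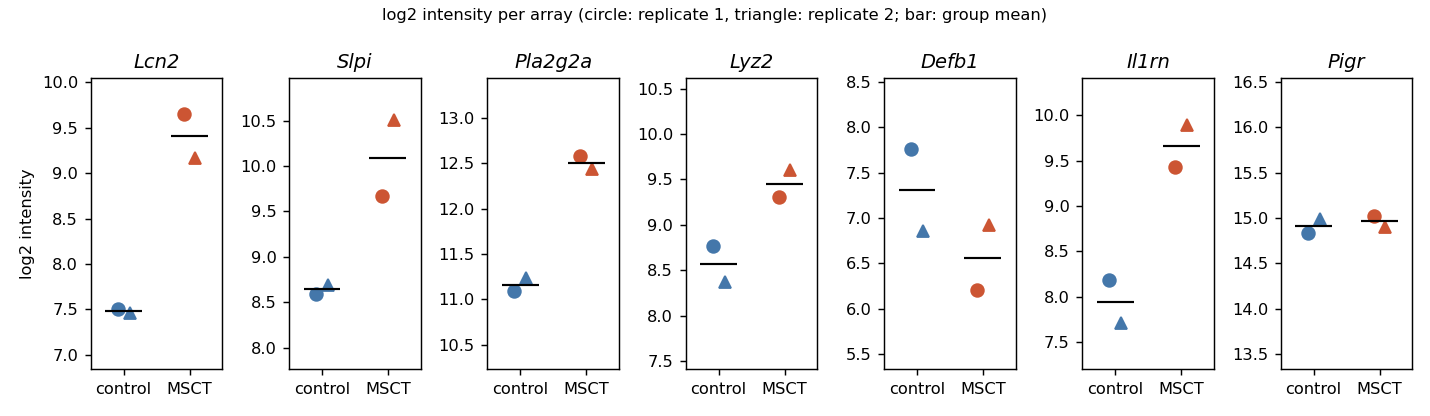
log2 intensity (vertical axis, with the same span of log2 units in every panel) of the 7 measured genes on each array, with control arrays in blue, MSCT arrays in red, circles for replicate 1, triangles for replicate 2 and bars for the group means. Lcn2, Slpi, Pla2g2a, Lyz2 and Il1rn have both MSCT arrays above both control arrays, whereas the groups overlap for Defb1 and Pigr.

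Lcn2 encodes lipocalin 2, which captures bacterial siderophores and so withholds iron. Its intensity was 181 and 176 in the control rats and 802 and 576 in the MSCT rats. The control arrays lay close together and both MSCT arrays were more than 3-fold above them, from 3.18-fold to 4.57-fold over the 4 pairs of arrays. Lcn2 was at percentile 29.7 by mean log2 intensity, where the 1000 nearest rows had a median SD between replicates of 0.38 on the log2 scale. The log2 level of Lcn2 was 7.48 ± 0.03 (SD, n = 2) in the control group and 9.41 ± 0.34 (SD, n = 2) in the MSCT group. The difference was 1.93 (standard error 0.24, 95% interval 1.28 to 2.57), a 3.81-fold change with an adjusted p of 0.257 in limma over all rows. That adjusted p is also the smallest of the whole table. With any 1 array left out, the difference lay between 1.69 and 2.17 and passed the screen.

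Slpi encodes the secretory leukocyte protease inhibitor, which blocks neutrophil elastase and has antibacterial activity of its own. Its intensity was 386 and 413 in the control rats and 817 and 1455 in the MSCT rats. The MSCT arrays were far apart, and the lower of them was 1.98-fold above the higher control array. The log2 level was 8.64 ± 0.07 (SD, n = 2) against 10.09 ± 0.59 (SD, n = 2), a difference of 1.45 (standard error 0.33, 95% interval 0.56 to 2.34). This is a 2.73-fold change with an adjusted p of 0.309 in limma. The difference was 1.03 without MSCT replicate 2 and 1.86 without MSCT replicate 1. By a plain test on these arrays alone (the methods' t-test, a two-group test with equal variances), Slpi did not pass the screen, with an unadjusted p of 0.0746, whereas Lcn2, Pla2g2a and Il1rn passed, as did 1.04% of all rows in this direction.

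Pla2g2a encodes the secreted group IIA phospholipase A2, which hydrolyzes the membranes of Gram-positive bacteria and is a product of Paneth cells in the small intestine. It was measured with the smallest gap between replicates among the 4 genes past the screen in the MSCT group. Its intensity was 2188 and 2408 in the control rats and 6108 and 5539 in the MSCT rats, and the 4 pairs of arrays gave 2.30-fold to 2.79-fold. The log2 level was 11.16 ± 0.10 (SD, n = 2) against 12.51 ± 0.10 (SD, n = 2). The difference was 1.34 (standard error 0.19, 95% interval 0.83 to 1.85), 2.53-fold, with an adjusted p of 0.260 in limma. With an intensity trend and robust fitting of the variance together in limma, Pla2g2a, Lcn2 and Il1rn had adjusted p-values of 0.00316, 0.0382 and 0.0453, and 1.16% of all rows were higher with an adjusted p under 0.05. Leaving out single arrays moved the difference of Pla2g2a between 1.27 and 1.41.

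Il1rn encodes the interleukin 1 receptor antagonist, which occupies the receptor of interleukin 1 without signaling. Its intensity was 290 and 209 in the control rats and 692 and 954 in the MSCT rats. The replicates differed by a similar amount in both groups, and every MSCT array was at least 2.38-fold above every control array. The log2 level was 7.95 ± 0.33 (SD, n = 2) against 9.67 ± 0.33 (SD, n = 2), a difference of 1.72 (standard error 0.29, 95% interval 0.96 to 2.48). This is 3.30-fold, with an adjusted p of 0.260 in limma. Lcn2, Pla2g2a and Il1rn were the 3 measured genes of the list with every MSCT array more than 2-fold above every control array, which held for 0.894% of all rows. Their replicates did not share an order: MSCT replicate 1 had the higher value for Lcn2 and Pla2g2a, and MSCT replicate 2 the higher value for Il1rn, Slpi and Lyz2.

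**Figure D2:**
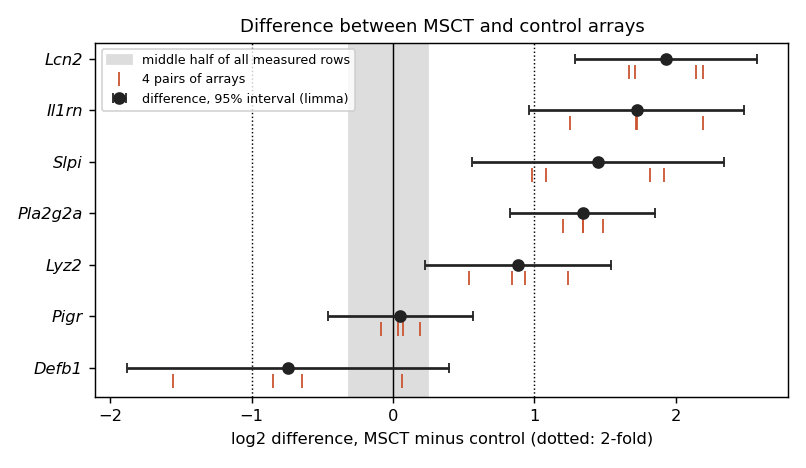
log2 difference of MSCT minus control (horizontal axis) for the 7 measured genes. Black points are the differences with 95% intervals from limma, red ticks the 4 pairs of single arrays, dotted lines 2-fold and the grey band the range between the quartiles of all measured rows (-0.31 to 0.25). The intervals of Lcn2, Il1rn, Slpi, Pla2g2a and Lyz2 lie above 0, whereas those of Pigr and Defb1 include it.

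Lyz2 encodes lysozyme, which cleaves the peptidoglycan of bacterial cell walls and is also a classical product of macrophages. Its intensity was 436 and 331 in the control rats and 631 and 779 in the MSCT rats. The groups did not overlap, as in 21.3% of all rows and 27.6% of the named genes for this direction, and the nearest pair of arrays differed by 1.45-fold. The log2 difference was 0.88 (standard error 0.25, 95% interval 0.23 to 1.54), 1.85-fold, with an unadjusted p of 0.0191 and an adjusted p of 0.338 in limma. It stayed under the limit of 2-fold with all arrays and passed the screen without control replicate 1 (1.08) or without MSCT replicate 1 (1.04).

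Defb1 encodes β-defensin 1, a pore-forming peptide that epithelia make without stimulation. Its intensity was 217 and 116 in the control rats and 74.0 and 121 in the MSCT rats. Control replicate 1 was the highest array and MSCT replicate 1 the lowest, while replicate 2 of both groups lay almost at the same value. The log2 difference was -0.75 (standard error 0.43, 95% interval -1.88 to 0.39), with an adjusted p of 0.546 in limma, and it moved between -1.20 and -0.29 with single arrays left out. This row was among the dimmest of the table (percentile 3.76 by mean log2 intensity), where rows repeat less well than among the brightest. The 1000 rows nearest to it in mean had a median SD between replicates of 0.45 on the log2 scale, beside 0.58 for Defb1 itself.

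Pigr encodes the polymeric immunoglobulin receptor, with which epithelial cells carry dimeric IgA and pentameric IgM into the lumen. Its intensity was 29252 and 32514 in the control rats and 33326 and 30669 in the MSCT rats, so that 1 MSCT array lay between the control arrays and the other just above them. The log2 difference was 0.05 (standard error 0.19, adjusted p = 0.932 in limma). The 95% interval of the fold change ran from 0.727 to 1.48, which leaves out a change of 2-fold in either direction under limma's shared variance. Its sign was not stable, at -0.02 when control replicate 1 and -0.01 when MSCT replicate 1 was left out. This row was among the brightest of the table (percentile 99.8).

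Reg3a, Reg3b and Reg3g encode C-type lectins that the intestinal epithelium secretes and that bind or kill bacteria. All 3 genes have a row in the table, and all 3 rows are blank on the 4 arrays by a rule that the sources do not describe. Their levels were not analysed here, and a blank cannot be read as a low level. Reg1a, a related secreted lectin of the same family, did have values. They were 57.2 and 134 in the control rats and 141 and 108 in the MSCT rats, with overlapping groups. The log2 difference was 0.50 (adjusted p = 0.702 in limma). This row was among the dimmest of the table (percentile 0.75 by mean log2 intensity). Reg4, the member of the family found in secretory cells of the colon, was at 201 and 186 in the control rats and 122 and 142 in the MSCT rats. Its difference of -0.56 did not reach 2-fold (unadjusted p of 0.0425 and adjusted p of 0.403 in limma).

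**Figure D3:**
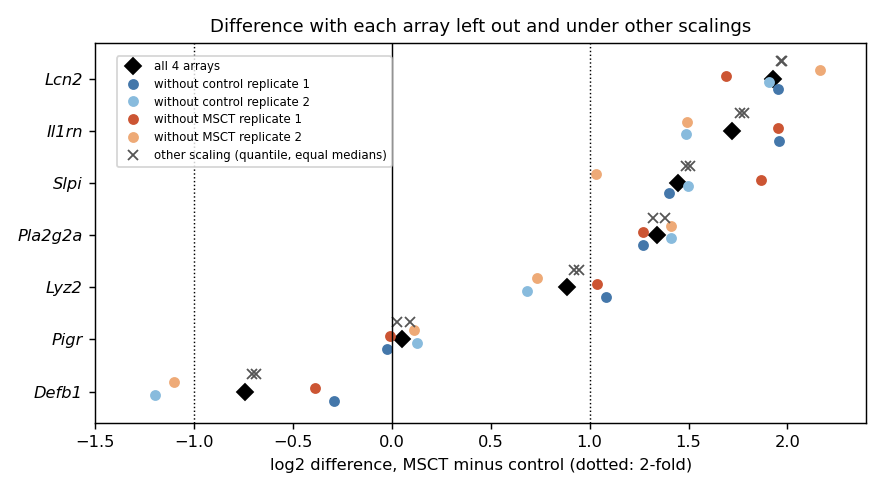
log2 difference of MSCT minus control (horizontal axis) for the 7 measured genes with all 4 arrays (diamonds), with each array left out (colored points) and after quantile normalization or with equal array medians (crosses). Lcn2, Il1rn, Slpi and Pla2g2a stay above the dotted line of 2-fold in every case, Lyz2 falls on both sides of it, and Pigr falls on both sides of 0.

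A list of 46 other antimicrobial genes was compared in the same way, to set these genes beside others with the same function. Of its genes, 23 were measured. The MSCT group had the higher mean for 17 (beside 55.75% of the named genes and 48.01% of all rows) and the lower mean for 6. Their median log2 difference was 0.45 and fell to 0.08 without control replicate 1. Past the screen were 2, both higher, beside 2.12% of all rows and 3.13% of the named genes in this direction. Zg16, a lectin of goblet cell mucus that binds Gram-positive bacteria, was at 1551 and 2284 in the control rats and 11356 and 12370 in the MSCT rats, a difference of 2.65 (standard error 0.26, adjusted p = 0.257 in limma). Retnlb, a bactericidal product of goblet cells, was at 177 and 182 in the control rats and 430 and 614 in the MSCT rats, a difference of 1.52 (standard error 0.25). Leaving out control replicate 2 gave 7 past the screen, and leaving out MSCT replicate 2 gave 4. Itln1, which encodes the lectin intelectin, differed by 0.88 and Duox2, which makes hydrogen peroxide at the epithelial surface, by 0.76, both with an unadjusted p under 0.05 and less than 2-fold. Ccl28, an epithelial chemokine with antimicrobial activity, had the opposite sign, at 1616 and 1468 in the control rats and 925 and 837 in the MSCT rats. Its difference was -0.81 (unadjusted p of 0.0109 and adjusted p of 0.313 in limma). The α-defensins with values, Defa11 and Defa24, differed by 0.49 and 0.42 and did not pass. Both rows were among the dimmest of the table (percentiles 1.29 and 0.28 by mean log2 intensity). Of the list, 11 genes were blank on all arrays, among them S100a8 and Nos2, and 12 had no row by name.

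The acute phase list holds genes of the acute phase response, most but not all of them for proteins that the liver and inflamed epithelia secrete. Of 20 measured genes, 16 were higher and 4 lower, with a median of 0.38 and none past the screen, a count that was 5 without control replicate 2 and 1 without MSCT replicate 2. At an unadjusted p under 0.05 in limma stood 2 that were higher (C4a and Steap4) and 1 that was lower (Mt1). Over all rows, 12.0% had such a p in either direction, and 55.75% of the named genes had the higher mean in the MSCT group. Control replicate 1 held the lowest value for 11 of the 20 genes, and the median was 0.06 without that array and 0.68 without control replicate 2. Crp, the C-reactive protein, shows the pattern, with 239 and 937 in the control rats and 510 and 668 in the MSCT rats. Lcn2, which is also counted among acute phase proteins, did not have this gap between its control arrays.

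In the interleukin 1 family, to which Il1rn belongs, 11 of 26 genes were measured and none passed the screen, though 2 did without control replicate 2 and 1 without MSCT replicate 2. Their median was -0.07, with 5 genes higher and 6 lower, and it was above 0 when control replicate 1 (0.09), control replicate 2 (0.20) or MSCT replicate 1 (0.16) was left out. Il1a, which encodes the agonist interleukin 1α, was at 58.3 and 128 in the control rats and 132 and 206 in the MSCT rats (difference 0.94, standard error 0.47, adjusted p = 0.510 in limma). Il1r2, the decoy receptor, was high on 1 MSCT array, with 108 and 57.6 in the control rats and 397 and 103 in the MSCT rats (difference 1.36, standard error 0.74). Il1b was blank on all arrays, and Il1r1 had no row by name. Of the receptor's signaling chain, Myd88, its adaptor, differed by 0.29 and Irak2, a kinase, by -0.38, neither past the screen.

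The axis of interleukin 22, interleukin 17 and STAT3 induces Lcn2 and the Reg3 genes in epithelium. Of its 35 genes, 13 were measured, with a median difference of 0.26. Past the screen was 1, higher in the MSCT group, beside 2.12% of all rows and 3.13% of the named genes. This was Osmr, the receptor of oncostatin M, at 156 and 174 in the control rats and 277 and 430 in the MSCT rats. The difference was 1.07 (standard error 0.28, adjusted p = 0.330 in limma). By the methods' t-test Osmr did not pass, with an unadjusted p of 0.0822. The count past the screen was 0 without control replicate 1 or MSCT replicate 2, and 2 without control replicate 2 or MSCT replicate 1. Stat3, the transcription factor, was at 6262 and 5714 in the control rats and 7415 and 6901 in the MSCT rats, a difference of 0.26 that did not pass (adjusted p = 0.619 in limma). Socs3, a feedback inhibitor that STAT3 induces, differed by 0.19 and did not pass. Il22, Il22ra1, Il17a and Il17ra were not matched to any row and are not reported.

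Because several of these proteins are also made by leukocytes, markers of other cells in the colon were listed beside them. Of 13 measured markers of macrophages and monocytes, 7 passed the screen, all higher in the MSCT group. In this direction 2.12% of all rows and 3.13% of the named genes passed. The median difference of the list was 1.00. The summed intensity of the 13 rows was 20675 and 21902 in the control rats and 30291 and 33898 in the MSCT rats. Clec10a, a lectin of macrophages and dendritic cells, differed by 1.62 (standard error 0.23) and C1qb, a chain of complement C1q, by 1.61 (standard error 0.22). Aif1 differed by 1.39 (standard error 0.38) and Cd68 by 1.29 (standard error 0.21). By the methods' t-test Aif1 did not pass, with an unadjusted p of 0.110. Cd14, the co-receptor of lipopolysaccharide, did not pass, at 9308 and 10814 in the control rats and 8986 and 10578 in the MSCT rats (difference -0.04). With single arrays left out or another scaling, between 5 and 8 of the 13 passed. These markers moved with Lcn2, Slpi, Il1rn and Lyz2, and their part in those results was not tested.

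The neutrophil list could be read for 4 of its 20 genes, and 7 others were blank. Ncf1, a subunit of the phagocyte oxidase that macrophages also express, was at 147 and 142 in the control rats and 378 and 307 in the MSCT rats (difference 1.24, standard error 0.21). Padi4, a peptidylarginine deiminase of granulocytes, had the opposite sign, at 2714 and 2089 in the control rats and 1133 and 1248 in the MSCT rats (a ratio of 0.499, with a standard error of 0.23 on the log2 scale). Both passed the screen, and without MSCT replicate 2 there were 2 past it that were higher. The summed intensity of the 4 rows was 3183 and 2459 in the control rats and 1988 and 1919 in the MSCT rats, of which Padi4 made up the most on every array, whereas the other 3 rows were higher in the MSCT group and the median of the list was 0.61. S100a9, an abundant neutrophil protein, differed by 0.54 and did not pass, and S100a8, Mmp8 and Cxcr2 were blank. The part of neutrophils in the level of Lcn2 was not tested.

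Markers of epithelium and smooth muscle were listed in the same way. Of 21 measured markers of colonocytes and epithelium in general, none passed the screen, with a median difference of 0.15 and a summed intensity of 333616 and 341426 in the control rats and 372215 and 360106 in the MSCT rats. Cldn7, a claudin of the lateral membrane, was at 28173 and 30914 in the control rats and 33285 and 32268 in the MSCT rats (difference 0.15). All 21 had values on every array, and the difference of Pigr lay within the range of this list. At an unadjusted p under 0.05 stood 1 marker, the transcription factor Elf3, with a difference of -0.72, and 1 passed the screen without control replicate 2. Smooth muscle genes had a median of 0.01, and none of the 7 passed. Acta2, smooth muscle actin, differed by -0.04.

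**Figure D4:**
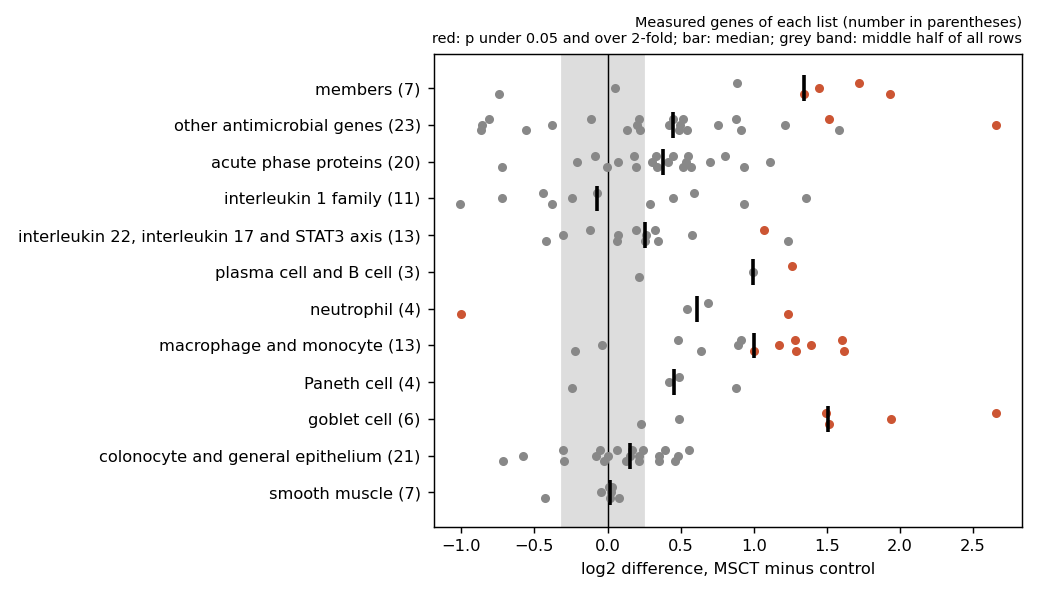
log2 difference of MSCT minus control (horizontal axis) for every measured gene of each list, with the number of genes in parentheses, red for genes past the screen, black bars for the medians and the grey band for the range between the quartiles of all measured rows. The medians of the members (1.34), the goblet cell list (1.51), the macrophage list (1.00) and the plasma cell and B cell list (1.00) lie furthest to the right. The epithelial (0.15) and smooth muscle (0.01) medians lie inside the band.

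Secretory cells were read from 2 further lists. Of the goblet cell list, 6 of 14 genes were measured, all higher in the MSCT group with no overlap (21.3% of all rows and 27.6% of the named genes). Past the screen were 4, beside 2.12% of all rows and 3.13% of the named genes, with a median of 1.51, and the count was also 4 with any 1 array left out. Besides Zg16 and Retnlb the 4 were Foxa3, a transcription factor, with a difference of 1.94 (standard error 0.26), and Tff3, a trefoil peptide of mucus, with 1.49 (standard error 0.25). Creb3l4 differed by 0.23 and did not pass. The summed intensity of the 6 rows was 28229 and 30083 in the control rats and 55298 and 50276 in the MSCT rats. Of the Paneth cell list, 4 of 13 genes were measured, with 6 blank, Defa5 and Mmp7 among them. Defa11 and Defa24 were among the dimmest rows of the table, and none of the 4 measured genes passed the screen. Their median was 0.46, and 1 passed without control replicate 2 (median 0.82) or without MSCT replicate 2 (median 0.29). The part of the goblet cell genes in the results above was not tested.

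For Pigr, the cells that supply its cargo were listed too. Of 13 markers of plasma cells and B cells, 3 were measured and 1 passed the screen, higher in the MSCT group. In this direction 2.12% of all rows and 3.13% of the named genes passed. Mzb1, a chaperone of immunoglobulin assembly, was at 111 and 99.4 in the control rats and 260 and 244 in the MSCT rats and passed the screen (difference 1.26, standard error 0.19). Xbp1, a transcription factor of secretory cells, was at 3005 and 2481 in the control rats and 5536 and 5351 in the MSCT rats, a difference of 1.00 that is just under 2-fold. Without control replicate 1 or MSCT replicate 2, 2 of the 3 passed. Sdc1, a surface proteoglycan that epithelium shares with plasma cells, differed by 0.22. Jchain, which links the IgA and IgM that Pigr carries, had no row by name.

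The genes whose pattern over the 4 arrays was most like that of Lcn2 were sought among 6967 other named genes, as the root mean square difference between log2 profiles after the mean of each row was taken out. Nearest were Slc12a8 (0.08), a member of a family of cation and chloride cotransporters, Repin1 (0.12), a zinc finger protein, and Srgn (0.14), the proteoglycan serglycin of leukocyte granules. Srgn was at 240 and 246 in the control rats and 869 and 752 in the MSCT rats. Among the measured genes of the list, Pla2g2a (0.32) and Il1rn (0.38) were closer to Lcn2 than Slpi (0.52) and Lyz2 (0.60), and Pigr (0.95) and Defb1 (1.43) were furthest. These distances describe 4 arrays and were not tested.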

How the data were processed

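Colon RNA of 2 control and 2 MSCT rats was measured on one-color (Cy3) NimbleGen arrays. The authors scanned them with a GenePix scanner and extracted the values with NimbleScan, and the deposited file gives 1 linear intensity for each RefSeq transcript and array. RMA is named in the submitters' processing notes without its role, and the background correction and the rule for blank rows are not given in the sources used here. Every value column belongs to a sample (0 left over).

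Intensities were converted to log2 without pseudocount, scaling or filter. limma 3.58.1 (R 4.3.3, lmFit and eBayes) was fitted on all 18350 rows with a value on every array, with Benjamini-Hochberg adjustment over them. Precision is limited by having 2 arrays in a group. The study's limits (p under 0.05, fold over 2) were used for calls, with the p from limma. Rows were named through GRCr8, and genes already among the members were left out of the other lists. Named are the 10 members, up to 4 genes past the screen in each direction in each list, 1 bright gene of each cell list, fixed ligands and receptors and the 3 genes nearest to Lcn2. Outside this rule fall Reg1a, Reg4, Duox2, Ccl28, Defa11, Defa24, Crp, C4a, Steap4, Mt1, Myd88, Irak2, Elf3, Sdc1, S100a9 and the other blank genes named. They were chosen once their values were known. The members and lists were chosen with earlier results of these data known. The fit was tested on simulated data. Alternatives were the methods' t-test, 2 scalings, 2 filters on dim rows, 2 other variance models (an intensity trend together with robust fitting, and array weights), a block for replicate number, each array left out, a fold limit of 1.5 and linear means. Each member has 1 row, so the choice of row could not change. Figures were drawn with matplotlib 3.10.9 in Python 3.11.15.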

Additional observations from a re-analysis of the deposited data

How the results depend on the processing

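Lcn2, Il1rn and Pla2g2a passed the screen under every alternative in which they were tested, and Slpi under all of them but the methods' t-test (p of 0.0746, where 3 members had a p under 0.05). With single arrays left out, 4 to 5 members passed the screen and 4 to 5 had a p under 0.05, none passed an adjusted p of 0.05 (0 to 0), and the median difference lay between 1.03 and 1.41, the lowest without MSCT replicate 2. With the dimmer 50% of rows left out, only Pla2g2a and Pigr were tested. Of these, 1 passed the screen, 1 had a p under 0.05 and 1 an adjusted p under 0.05 (Pla2g2a, 0.0158 in limma), and the median was 0.70. With an intensity trend and robust fitting of the variance together, 3 members passed an adjusted p of 0.05 in limma (Pla2g2a at 0.00316, Lcn2 at 0.0382 and Il1rn at 0.0453), beside 1.16% of all rows that did so and were higher. The difference of Pigr lay between -0.024 and 0.13 with single arrays left out, and was below 0 without control replicate 1 (-0.024) or MSCT replicate 1 (-0.0080). With the replicate number as a block (replicate block), 4 members passed the screen, 5 had a p under 0.05 and none passed after adjustment, as without it. The labels tie the numbers to no shared litter or day, and the deviations of same-numbered arrays correlated at 0.23 over all rows. The list medians that turned sign, in alternatives added after the data were examined, were those of the interleukin 1 family (0.09 without control replicate 1, 0.20 without control replicate 2 and 0.16 without MSCT replicate 1, range -0.22 to 0.20) and of smooth muscle (-0.029 after quantile normalization and -0.10 to 0.015 with single arrays left out, below 0 in all but 1 of these). Dim rows, Defb1 among them, repeat less well than bright ones, and for these only large differences are detectable with 2 arrays in each group.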
